A study of Homo sapiens with 12 samples.

Results

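The hypoxia-inducible factor HIF1A, its oxygen sensors EGLN1 and EGLN3, and the target genes CA9, VEGFA, ADM, NDRG1, BNIP3, ANKRD37 and HILPDA were followed in RNA-seq of SCC15 and SCC25, oral squamous cell carcinoma lines with no engineered allele (genotype given as WT). The 10 genes were matched by gene name and were all found, out of 34227 genes listed for either line, and all 10 passed the filter on low values in both lines. Each line had 3 libraries of cells treated for 24 h with squamocin at 10 µg/mL and 3 of cells treated with DMSO, the solvent control, making 12 libraries. Squamocin is an annonaceous acetogenin, a class that blocks mitochondrial Complex I, and the sample labels call this treatment ACGs. The labels do not say whether the 3 libraries of a group came from separate cultures, so p-values measure the spread between these libraries, which may be technical.

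In the presence of oxygen, prolyl hydroxylases of the EGLN family modify the HIF-1α protein, the VHL ubiquitin ligase binds the modified protein, and the proteasome degrades it. In low oxygen HIF-1α escapes this route, pairs with ARNT and switches on genes for glucose use, blood vessel growth, pH control and mitochondrial turnover. Because this control acts on the protein, the HIF1A transcript level alone does not report HIF activity, and protein was not measured in these libraries. EGLN3 and, less steeply, EGLN1 are themselves HIF targets and form a feedback loop.

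HIF binds DNA at short core motifs, written here as ACGTG or as GCGTG. On the opposite strand these letters appear as CACGT and as CACGC, and both strands were searched. VEGFA, NDRG1 and HILPDA had no promoter window to search. In the other members the 250 bases before the RefSeq start were searched, and the sequences below place the cores found there. They are shown for every member with a match, whatever the size of its response. They are RefSeq sequences (GRCh38.p14) on the strand of each gene, 5′ to 3′, and capitals mark the cores or, where both strands overlap, the palindrome CACGTG.
CA9: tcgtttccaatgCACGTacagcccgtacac
BNIP3: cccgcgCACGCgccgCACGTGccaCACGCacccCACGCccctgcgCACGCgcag
ANKRD37: gctcCACGTGccagtgtttgtgtACGTGcg
ADM: gagagcaggagcgcGCGTGgctgaggaaag
EGLN1: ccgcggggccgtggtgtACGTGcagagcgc
HIF1A: attggctgagagcgGCGTGggctggggtgg

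The CA9 stretch lies at chr9:35673898-35673927 on the + strand, directly before the RefSeq start and inside an exon of the GENCODE v44 annotation. The BNIP3 stretch is chr10:131982019-131982072 on the − strand, the ANKRD37 stretch chr4:185396675-185396704 on the + strand, and the ADM stretch chr11:10304958-10304987 on the + strand. The EGLN1 stretch is chr1:231422288-231422317 on the − strand and the HIF1A stretch chr14:61695295-61695324 on the + strand, and these 5 lie outside annotated exons. The CA9, ANKRD37, ADM and EGLN1 stretches lie inside the gene spans given below, which begin upstream of the RefSeq start. The core in CA9 began 18 bases before the start, and BNIP3 held 6 matches and ANKRD37 3, each counting the palindrome as a match on both strands. EGLN3 held 0 matches in its window. The RefSeq table holds 2 windows for HIF1A, and the other one held 0 matches. For scale, at least 1 core of either kind was present in 43.2% of 35116 promoter windows of that length, ACGTG in 18.5%, GCGTG in 32.2% and CACGTG in 6.34%. A match is a description of the letters and not of binding.

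The libraries held 16665563 to 22748845 recovered reads. Squamocin replicate 3 of SCC15 stood apart from the other 2 of its group, with a chi-square per degree of freedom of 63.6 and 71.6 over genes against 1.72 to 11 for the other 10 replicate pairs, so the SCC15 values that moved most without it are also given without it. Of 7 squamous epithelial markers, all 7 were tested in SCC25, while in SCC15 KRT5, TP63 and EPCAM held at most 26 reads in any library and KRT17 averaged 112298 normalized counts with DMSO. The summed level of 10 leukocyte, endothelial and fibroblast markers was 57.4 to 62.3 CPM (recovered reads per library scaled to a common total of 1e6) with DMSO and 23.0 to 27.1 with squamocin in SCC15, and 54.3 to 61.2 and 51.7 to 60.8 in SCC25. Of these, 3 fell and 0 rose in SCC15. In SCC25 COL1A1 rose by 0.70 on the log2 scale, and the endothelial PECAM1 (−4.79), CDH5 (−3.59) and VWF (−1.20) fell. PTPRC, a leukocyte marker, held at most 5 reads in SCC15 and was not listed for SCC25. The summed squamous markers went from 7156 to 7529 CPM with DMSO to 10041 to 14482 with squamocin in SCC15, and from 1349 to 1361 to 1865 to 1991 in SCC25. These sums do not show a rise of every marker. By single gene, SCC15 had 2 squamous markers called higher, 0 lower and 4 not called. For SCC25, 5 were called higher against 2 lower. The part of either marker list in the results was not tested. In bulk RNA, fewer cells of a kind and less RNA per cell cannot be told apart.

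Squamocin moved these genes in different directions. Between the lines only CA9 was called in opposite directions, beside 10.1% of all genes. In SCC15, CA9, NDRG1, ADM, BNIP3 and VEGFA rose and EGLN1 and EGLN3 fell, while HIF1A, ANKRD37 and HILPDA did not pass the threshold. In SCC25, ADM, VEGFA, HILPDA, BNIP3 and HIF1A rose, CA9, EGLN3, ANKRD37 and EGLN1 fell, and NDRG1 did not pass it. The threshold was an adjusted p of 0.05 in limma over all genes of a line. Without squamocin replicate 3 of SCC15, all 10 members passed it there, 6 higher and 4 lower. That fit called 6103 of all 15902 tested genes higher and 5920 lower, more than the main fit. In the main fit the 5 rising and 2 falling members in SCC15 stand beside a background of 30.9% of 15902 tested genes called higher and 30.0% called lower (61.0% in either direction). For the 5 rising and 4 falling members in SCC25 the background was 38.3% and 38.5% of 16539 genes (76.8% in either direction). Of the members, 3 rose in both lines and 2 fell in both, beside 22.1% and 18.6% of the 14454 genes tested in both. In SCC15 the squamocin and DMSO libraries did not overlap for 8 of the 10 members, 6 higher and 2 lower, where 35.7% of all genes lay higher and 34.9% lower without overlap (70.6% in all). In SCC25 the same held for 9 members, 5 higher and 4 lower, where the shares of all genes were 39.4%, 39.6% and 79.0%. The median log2 fold change of the members was 0.57 in SCC15 and 0.06 in SCC25, against 0.01 and −0.01 over all genes tested.

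**Figure D1:**
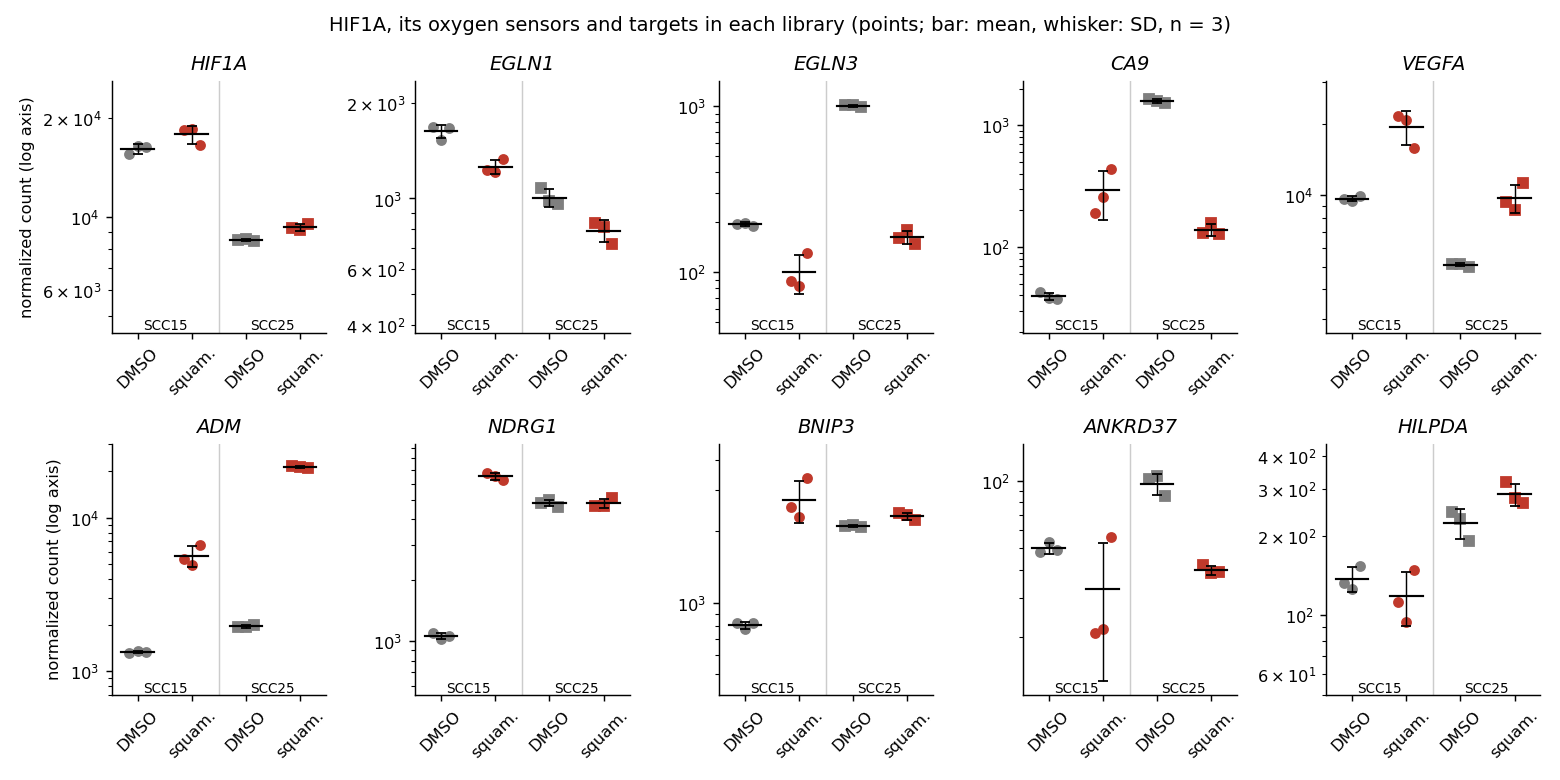
Normalized counts (log axis) of the 10 genes in each library of SCC15 (circles) and SCC25 (squares) with DMSO (grey) or squamocin (red), with the mean and SD of 3 libraries. CA9 rises from a mean of 39.4 to 296 in SCC15 and falls from 1598 to 139 in SCC25, whereas ADM and VEGFA rise in both lines.

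HIF1A (ENSG00000100644, chromosome 14, 61695513 to 61748259, GRCh38), which encodes the oxygen-regulated subunit, changed little. In SCC15 it measured 18459, 18563 and 16565 normalized counts with squamocin and 15532, 16501 and 16367 with DMSO. The groups do not overlap, but replicate 3 of squamocin lies close to the highest DMSO library. The log2 fold change was 0.15 ± 0.10 (SE; 17862 ± 1125 against 16134 ± 525, SD, n = 3 each) and did not pass the threshold (limma, adjusted p = 0.250). Without squamocin replicate 3 it was 0.20 with an adjusted p of 1.3e-04. In SCC25 HIF1A measured 9249, 9108 and 9515 with squamocin and 8504, 8583 and 8428 with DMSO, a small separation without overlap. There the log2 fold change was 0.13 ± 0.04 (limma, adjusted p = 0.00626). Both directions turn when libraries are scaled to equal totals (−0.35 in SCC15 and −0.081 in SCC25), a scaling that moves the median of all genes to −0.48 and −0.22. Relative to that median HIF1A lay at 0.13 and 0.14.

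The sensors fell in both lines. EGLN1 (ENSG00000135766, chromosome 1, 231363751 to 231425044), the main prolyl hydroxylase acting on HIF-1α in normal oxygen, measured 1230, 1213 and 1330 normalized counts with squamocin against 1674, 1532 and 1673 with DMSO in SCC15. In SCC25 it measured 840, 815 and 718 against 1078, 980 and 959. All squamocin libraries were below all DMSO libraries of the same line. The log2 fold changes, −0.37 ± 0.08 (adjusted p = 0.00698) and −0.35 ± 0.07 (adjusted p = 6.93e-04; limma), differed by −0.02 with a 95% interval of −0.27 to 0.22.

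EGLN3 (ENSG00000129521, chromosome 14, 33924231 to 34462774), the sensor whose transcript responds most to hypoxia, fell further in SCC25. It measured 161, 179 and 149 normalized counts with squamocin in that line against 1015, 1012 and 990 with DMSO, 6.17-fold lower in the mean, with all 3 treated libraries far below the controls. In SCC15 it measured 88.1, 82.1 and 131 against 196, 198 and 189, again without overlap, and squamocin replicate 3 was nearest to the controls. The log2 fold changes were −2.62 ± 0.08 in SCC25 (adjusted p = 2.48e-11) and −0.98 ± 0.19 in SCC15 (adjusted p = 0.00315), or −1.19 without that replicate. The response in SCC15 minus that in SCC25 was 1.64 ± 0.21 (limma contrast, adjusted p = 3.39e-05).

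CA9 (ENSG00000107159, chromosome 9, 35673856 to 35681159), carbonic anhydrase IX at the cell surface and a widely used transcript marker of HIF activity, moved in opposite directions. In SCC15 it measured 189, 259 and 439 normalized counts with squamocin against 42.7, 38.0 and 37.5 with DMSO. In SCC25 the order was inverted, with 131, 157 and 128 against 1655, 1599 and 1540. Neither line showed overlap, and the treated SCC15 libraries were the most scattered, with replicate 3 the highest. CA9 thus stood 7.51-fold higher in SCC15 (log2 fold change 2.79 ± 0.29, adjusted p = 2.11e-04) and 11.5-fold lower in SCC25 (−3.52 ± 0.09, adjusted p = 2.82e-12; limma). Without SCC15 squamocin replicate 3 the rise was 2.46. The difference between the responses was 6.32 ± 0.32 on the log2 scale (95% interval 5.63 to 7.0, adjusted p = 2.65e-08), the 4th in size among the 14454 genes tested in both lines. It was 5.99 without the replicate that stood apart.

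Among those genes, 3 were called higher in SCC15 and lower in SCC25 by more than 2 on the log2 scale each. CA9 was 1 of them, and the others, named after their values were seen, were the basal keratin gene KRT15 (2.12 in SCC15 and −4.91 in SCC25) and the keratin pseudogene KRT16P2 (2.93 and −2.57). CA9 shares 571 exonic bases, 35.7% of its exonic length in GENCODE v44, with ARHGEF39 on the opposite strand, and whether the counting used strand is not given in the sources used here. ARHGEF39 had log2 fold changes of −0.10 in SCC15 (adjusted p = 0.554) and −0.46 in SCC25 (adjusted p = 6.47e-04), at 167 to 322 normalized counts in the 4 group means.

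VEGFA and ADM, secreted factors of the vascular response, rose in both lines. VEGFA (ENSG00000112715, chromosome 6, 43770184 to 43786487), the principal angiogenic growth factor, measured 21733, 20797 and 15839 normalized counts with squamocin in SCC15 against 9614, 9452 and 9933 with DMSO. In SCC25 it measured 9333, 8665 and 11238 against 5122, 5121 and 4992. All treated libraries exceeded all controls, with the lowest treated value in replicate 3 of SCC15. The means were 2.01-fold and 1.92-fold higher (log2 fold change 1.00 ± 0.14, adjusted p = 7.48e-04, and 0.93 ± 0.07, adjusted p = 1.26e-07; limma). The responses differed by 0.06, with a 95% interval of −0.30 to 0.43.

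ADM (ENSG00000148926, chromosome 11, 10304680 to 10307397) encodes adrenomedullin, a vasodilator peptide. With squamocin it reached 21630, 21282 and 21015 normalized counts in SCC25, from 1951, 1930 and 2003 with DMSO. In SCC15 it reached 5418, 4952 and 6633, from 1324, 1365 and 1341. The groups lie far apart in both lines and the SCC25 libraries are tightly placed. The rise was 10.9-fold in SCC25 (log2 fold change 3.44 ± 0.04, adjusted p = 3.87e-15) and 4.22-fold in SCC15 (2.07 ± 0.12, adjusted p = 2.10e-05). The response was smaller in SCC15 by −1.38 ± 0.13 on the log2 scale (limma contrast, adjusted p = 2.29e-06). In SCC25 this was the 114th largest rise among 16539 genes.

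NDRG1 and BNIP3 responded mainly in SCC15. NDRG1 (ENSG00000104419, chromosome 8, 133237171 to 133302022), a stress-responsive gene of the NDRG family, measured 6750, 6560 and 6270 normalized counts with squamocin in SCC15 against 1095, 1025 and 1057 with DMSO. In SCC25 it measured 4630, 4677 and 5098 against 4813, 4990 and 4624. The SCC15 groups were separated by a wide gap and the SCC25 groups overlapped. NDRG1 was 6.16-fold higher in SCC15 (log2 fold change 2.62 ± 0.08, adjusted p = 3.20e-06). In SCC25 the log2 fold change was −0.0028 with a 95% interval of −0.11 to 0.10 (adjusted p = 0.960), and −0.21 with libraries scaled to equal totals (adjusted p = 0.00192). The difference between the responses was 2.63 ± 0.09 (limma contrast, adjusted p = 1.47e-09).

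BNIP3 (ENSG00000176171, chromosome 10, 131966455 to 131982013), a mitochondrial outer membrane protein that drives mitophagy, measured 2533, 2292 and 3350 normalized counts with squamocin in SCC15 against 817, 772 and 818 with DMSO. In SCC25 it measured 2395, 2337 and 2236 against 2099, 2120 and 2093. There was no overlap in either line, and the gap was wide only in SCC15. The rise was 3.40-fold in SCC15 (log2 fold change 1.74 ± 0.14, adjusted p = 7.79e-05). In SCC25 it was 0.14 ± 0.04 (adjusted p = 0.0106), which became −0.066 with equal library totals (adjusted p = 0.172), or 0.15 above the median gene. The responses differed by 1.60 ± 0.15 (limma contrast, adjusted p = 3.36e-06).

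The remaining targets, ANKRD37 and HILPDA, did not pass the threshold in SCC15. ANKRD37 (ENSG00000186352, chromosome 4, 185396021 to 185400628), an ankyrin repeat protein induced by HIF, measured 20.9, 21.7 and 56.0 normalized counts with squamocin in SCC15 against 47.8, 53.0 and 48.9 with DMSO. In SCC25 it measured 41.9, 38.5 and 38.9 against 102, 104 and 85. In SCC15 a single treated library lay above all controls and the other 2 lay below them, while the SCC25 groups were separate. It fell in SCC25 (log2 fold change −1.26 ± 0.17, adjusted p = 1.77e-05), and its SCC15 value was −0.74 ± 0.38 (limma, adjusted p = 0.123), or −1.19 without squamocin replicate 3 (adjusted p = 1.6e-04). The difference was 0.52 with a 95% interval of −0.39 to 1.44, or 0.069 without that replicate (adjusted p = 0.837). Over 909 bases, 40.3% of its exonic length, ANKRD37 overlaps UFSP2 on the opposite strand, which rose by 0.70 in SCC15 (adjusted p = 0.00127) and stood at −0.07 in SCC25 (adjusted p = 0.469).

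HILPDA (ENSG00000135245, chromosome 7, 128455849 to 128458418), a lipid droplet protein, measured 112, 94.6 and 148 normalized counts with squamocin in SCC15 against 133, 126 and 154 with DMSO. In SCC25 it measured 319, 279 and 266 against 247, 232 and 192. The SCC15 groups overlapped, and in SCC25 all 3 treated libraries lay above the controls. The rise in SCC25 was 0.37 ± 0.11 on the log2 scale (limma, adjusted p = 0.00980), and it did not pass the threshold without DMSO replicate 3 (0.26, adjusted p = 0.0568) or with equal library totals (0.16, adjusted p = 0.202). In SCC15 the value was −0.23 ± 0.19 (adjusted p = 0.309), or −0.41 without squamocin replicate 3 (adjusted p = 0.0157). The difference of −0.60 ± 0.23 (adjusted p = 0.0432) was lost in 8 of the 12 fits that left out 1 library, and was −0.77 without squamocin replicate 3 of SCC15 (adjusted p = 0.00138).

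**Figure D2:**
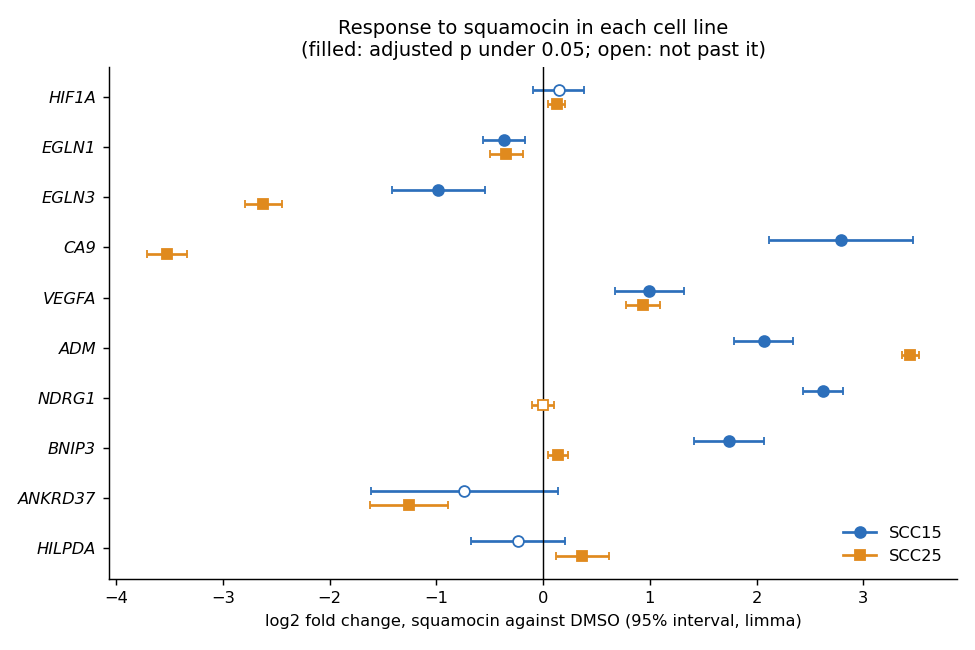
Log2 fold change of each gene, squamocin against DMSO, in SCC15 (blue circles) and SCC25 (orange squares) with 95% limma intervals, filled where the adjusted p is under 0.05. The intervals of HIF1A, EGLN1 and VEGFA overlap between the lines, whereas CA9 lies at 2.79 in SCC15 and −3.52 in SCC25.

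Taking the contrast between the lines as a whole, 6 of the 10 responses differed, with EGLN3, CA9, NDRG1 and BNIP3 higher in SCC15 and ADM and HILPDA lower. The background was 52.2% of 14454 genes called different in either direction. HIF1A, EGLN1, VEGFA and ANKRD37 were not called different, and the intervals above give the size of difference that these libraries still allow. Calls in opposite directions were made for 1 member, CA9, and for 10.1% of all genes.

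The lines already differed without squamocin. In CPM, CA9 stood at 2.54 ± 0.18 in SCC15 and 87.4 ± 2.94 in SCC25 with DMSO (SD, n = 3), 34.4-fold higher in SCC25. EGLN3 (12.6 and 55.0), NDRG1 (68.3 and 263) and BNIP3 (51.8 and 115) were also at higher levels in SCC25 controls. HIF1A (1041 and 465), VEGFA (624 and 278) and EGLN1 (105 and 55.0) were at higher levels in SCC15 controls. The DMSO libraries of the lines did not overlap for any of the 10 genes. The share of all genes without such overlap was not worked out, so this cannot be read as particular to these genes. No test was made across the lines because the authors normalized them separately.

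With squamocin the lines were nearer to each other in CPM for 8 of the 10 genes, against 43.4% of all genes. HIF1A, EGLN1 and VEGFA are among them, and for these the count rests largely on scaling to equal totals. Their responses differed by −0.27, −0.31 and −0.23 with equal totals (SCC15 minus SCC25). On the authors' scaling they differed by 0.02, −0.02 and 0.06. The 8 include ANKRD37, whose squamocin replicate 3 of SCC15 held 56.0 normalized counts against 20.9 and 21.7 in replicates 1 and 2. The count was not repeated without that library. CA9 then stood at 13.2 CPM in SCC15 and 6.56 in SCC25, NDRG1 at 300 and 227, BNIP3 at 123 and 110, and EGLN3 at 4.52 and 7.71. For ADM the lines moved apart, from 86.6 and 107 to 257 and 1009, and HILPDA also moved apart. The median absolute log2 ratio between the lines went from 1.157 to 0.834 for the 10 genes, while over all genes it went from 0.616 to 0.746. The 10 genes thus started further apart, so their share and that of all genes are not on equal terms.

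**Figure D3:**
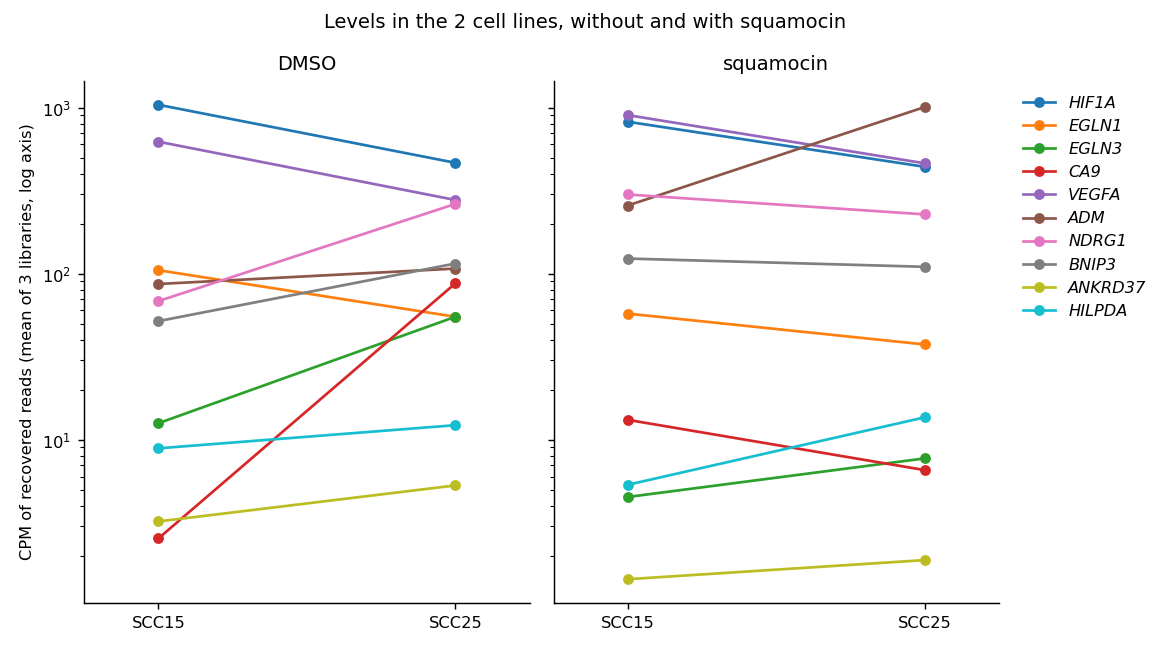
Mean CPM of recovered reads (log axis, 3 libraries) of the 10 genes in SCC15 and SCC25 with DMSO (left) and with squamocin (right), with a line joining the values of each gene. CA9 climbs from 2.54 to 87.4 between the lines with DMSO and drops from 13.2 to 6.56 with squamocin.

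In RPKM (recovered reads scaled to exonic length and library total), the order of the DMSO levels in SCC15 was HIF1A (202), VEGFA (43.2), ADM (37.3), EGLN1 (19.5), BNIP3 (12.8), NDRG1 (5.69), HILPDA (4.28), EGLN3 (1.71), CA9 (1.59) and ANKRD37 (1.43). EGLN3 and CA9 did not differ beyond their spread (SDs of 0.037 and 0.11). In SCC25 the same scale gave HIF1A (90.3), CA9 (54.7), ADM (46.1), BNIP3 (28.4), NDRG1 (21.9), VEGFA (19.3), EGLN1 (10.2), EGLN3 (7.47), HILPDA (5.91) and ANKRD37 (2.35). CA9 thus ranked near the bottom in one line and directly below HIF1A in the other on this scale. Exonic length here joins the exons of all annotated transcripts, 1598 bases for CA9 against 14431 for VEGFA and 12002 for NDRG1. By CPM with DMSO in SCC25, VEGFA (278), NDRG1 (263), BNIP3 (115) and ADM (107) exceeded CA9 (87.4). The place of CA9 in the order therefore depends on these lengths. With squamocin in SCC25, ADM reached 434 RPKM and passed HIF1A at 85.4.

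The remaining machinery of the pathway was read from a list of 16 genes for HIF subunits, sensors, the VHL ligase and coactivators, of which 15 were tested in each line. In SCC15 8 rose and 5 fell, beside 30.9% and 30.0% of all genes, and in SCC25 7 rose and 5 fell, beside 38.3% and 38.5%. The median log2 fold changes were 0.53 and 0.06. Among subunits, ARNT, the constant partner of HIF-1α, rose by 0.53 ± 0.14 in SCC15 and 0.71 ± 0.06 in SCC25 (adjusted p = 0.0122 and 2.28e-07), and in SCC15 it was not called with equal library totals (0.036, adjusted p = 0.879). EPAS1, which encodes HIF-2α, stood at −0.01 in SCC15 (limma, adjusted p = 0.923) and rose by 0.30 in SCC25 (adjusted p = 3.42e-05). With equal library totals EPAS1 was called lower in SCC15 (−0.51, adjusted p = 0.0271) and was not called in SCC25 (0.092, adjusted p = 0.0728). ARNT2, at 43.9 normalized counts with DMSO in SCC15, fell there by 1.45 on the log2 scale, and had −0.13 in SCC25 (adjusted p = 0.785).

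Of the remaining oxygen sensors, HIF1AN, the asparagine hydroxylase that blocks coactivator binding, fell in both lines (−1.24 in SCC15 and −1.01 in SCC25). EGLN2 rose by 0.87 in SCC15 and fell by 0.57 in SCC25, and the responses differed by 1.44 (adjusted p = 0.00131). Its SCC15 rise was not called with equal library totals (0.38, adjusted p = 0.253). SIAH1 and SIAH2, ubiquitin ligases that act on EGLN proteins, rose in SCC15 by 1.48 and 1.30 and in SCC25 by 2.21 and 1.29. The coactivator EP300 fell by 1.22 and 1.09, and CREBBP, its close relative, fell by 0.82 in SCC15, a call lost without any 1 of the DMSO libraries (adjusted p of 0.0514 to 0.0652). In SCC25 CREBBP fell by 0.33 (limma, adjusted p = 2.84e-05). Without squamocin replicate 3 the SCC15 values were −0.85 for EP300 and −0.51 for CREBBP. Among the 5 VHL ligase subunits, 4 rose and 1 fell in SCC15 and 2 rose and 1 fell in SCC25. ELOB rose by 1.15 in SCC15 (0.81 without squamocin replicate 3) and ELOC by 0.91 in SCC25. The other rises and the opposite calls of VHL, named after their values were seen, were as follows. ELOC rose by 0.85 in SCC15, not called with equal library totals (0.36, adjusted p = 0.0872), and RBX1 by 1.09 and 0.90. VHL, the substrate receptor of the ligase, rose by 1.00 in SCC15 (adjusted p = 9.75e-05) and fell by 0.25 in SCC25 (adjusted p = 8.81e-04).

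Other HIF targets outside glycolysis rose more often than they fell in SCC15 and were evenly divided in SCC25. Of 40 tested in SCC15, 27 rose and 5 fell (median log2 fold change 0.67), and of 41 tested in SCC25, 18 rose and 17 fell (median 0.01). The backgrounds were 30.9% higher and 30.0% lower in SCC15 and 38.3% and 38.5% in SCC25. DDIT4, an inhibitor of mTORC1, rose by 2.95 ± 0.13 in SCC15 (limma, adjusted p = 1.06e-05) and by 0.93 in SCC25. BHLHE40, a transcriptional repressor, rose by 2.23 in SCC15 and 3.24 in SCC25, and STC2, a secreted glycoprotein, rose by 1.97 and 0.48. The largest SCC25 rises by the naming rule after BHLHE40 were the ephrin ligand EFNA1 (2.16) and the urokinase receptor PLAUR (2.14). Both also rose in SCC15 (1.26 and 1.59). Genes of this list were named from a mean of 100 normalized counts, without overlap between the groups and up to 3 in each direction. Under that rule the falls in SCC25 were led by IGFBP3 (−1.89), an IGF-binding protein, LOXL2 (−1.55), a collagen crosslinking enzyme, and PLOD1 (−1.53), a collagen lysyl hydroxylase. In SCC15 IGFBP3, LOXL2 and PLOD1 were called higher (0.74, 0.90 and 0.77). With equal library totals LOXL2 and PLOD1 were not called there (limma, adjusted p = 0.0589 and 0.102). The 3 named falls in SCC15 were ZNF395 (−0.87), the glycogen synthase GYS1 (−0.77) and the histone demethylase KDM4B (−0.46). These also fell in SCC25 (−0.95, −0.69 and −1.21). Outside that rule, and named after their values were seen, STC1 (−3.97, from a mean of 70.8 to 4.01 normalized counts) and PPFIA4 (−3.28, from 128 to 12.6) fell in SCC25, and RORA (−1.41) and PLOD2 (−0.24, adjusted p = 0.0429) fell in SCC15. Of 40 genes tested in both lines, the responses of 28 differed, 22 being higher in SCC15 and 6 lower, beside 26.1% and 26.0% of all genes.

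Glycolytic targets mostly rose in SCC15 and mostly fell in SCC25. In SCC15 15 of 18 tested genes rose and 1 fell (median log2 fold change 0.61), while in SCC25 15 of 17 fell and 0 rose (median −0.70). Among all genes tested, SCC15 had 30.9% called higher against 30.0% called lower, with a median of 0.01. For SCC25 these shares were 38.3% against 38.5%, with a median of −0.01. At an unadjusted p of 0.05, limma, edgeR and DESeq2 also gave 0 rising glycolytic genes in SCC25. ENO2, an enolase, rose by 1.93 ± 0.10 in SCC15, with the aldolases ALDOA (1.41) and ALDOC (1.38). ALDOA fell in SCC25 by 1.34 ± 0.08, with the phosphofructokinase subunits PFKP (−1.35) and PFKL (−1.11). The level of ALDOA with DMSO was 15.9 CPM in SCC15 and 84.4 in SCC25. Shared exonic bases with other genes were looked up for the members only, not for ALDOA. PFKFB3, which makes an activator of phosphofructokinase, fell by 0.60 in SCC15 and by 1.09 in SCC25. All 17 genes tested in both lines had a higher response in SCC15 by the limma contrast, against 26.1% of all genes. With equal library totals 7 glycolytic genes rose and 4 fell in SCC15, beside 2357 higher and 8033 lower of all 15902 genes under that scaling.

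Paralogs, receptors and partners of the members were tested for 20 genes in SCC15, of which 11 rose and 3 fell, and for 18 in SCC25, of which 7 rose and 8 fell. All genes rose or fell in 30.9% and 30.0% of cases in SCC15 and in 38.3% and 38.5% in SCC25. The medians of log2 fold change were 0.51 and −0.21. In SCC15 6 or 7 of these genes rose without any 1 of the DMSO libraries, beside 3902 to 3954 of all 15902 genes. Without squamocin replicate 3, 6 fell, beside 5920 of all genes. VEGFC, a lymphatic growth factor related to VEGFA, rose by 2.34 in SCC25, where its receptor partner NRP2 fell by 1.00. The related NRP1, named after its value was seen, rose in SCC25 by 0.98 (limma, adjusted p = 8.09e-05). RAMP1, a receptor activity modifying protein of the calcitonin receptor family, and ADM2, a peptide related to adrenomedullin, fell in SCC25 by 1.21 and 1.00. In SCC15 RAMP1 and ADM2 were called higher (0.85 and 0.62), but not with equal library totals (limma, adjusted p = 0.219 and 0.563). BCL2L1, which encodes the BNIP3-binding protein BCL-xL, and FUNDC1, another mitophagy receptor, rose in SCC25 by 1.87 and 1.28. The lipid droplet genes G0S2, PLIN2 and PNPLA2 rose in SCC15 by 3.81, 2.67 and 1.38, whereas PLIN3 fell by 0.37. NDRG2, of the NDRG family, fell there by 0.63, a call lost without squamocin replicate 2 or DMSO replicate 2 or 3 (adjusted p of 0.0526 to 0.0678). G0S2 and PLIN2 were below the filter in SCC25.

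**Figure D4:**
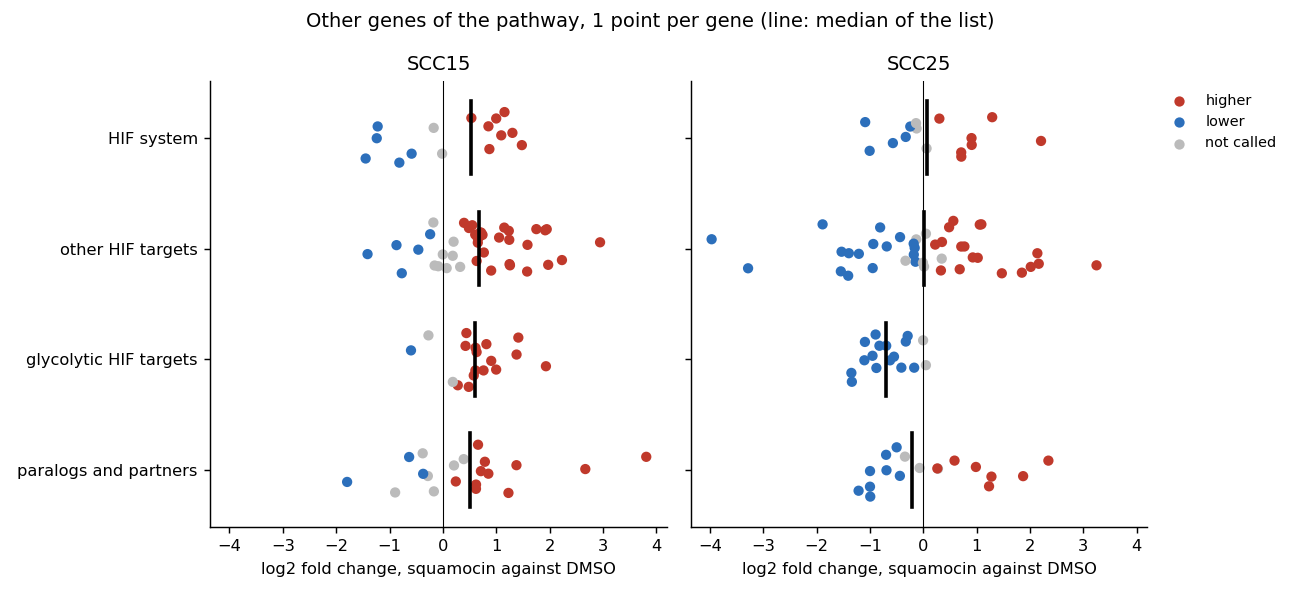
Log2 fold change of squamocin against DMSO for the remaining genes of each list in SCC15 (left) and SCC25 (right), red for called higher, blue for called lower and grey for not called, with the median of the list as a black bar. Glycolytic targets lie around a median of 0.61 in SCC15 and −0.70 in SCC25.

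Across the 12 libraries, each centred on its cell line, NDRG1 and BNIP3 varied most alike among the members (Pearson r = 0.973), followed by VEGFA and HIF1A (0.926). EGLN3 and ADM ran opposite (−0.960). The genes most like HIF1A among 9698 were MICAL2 (0.969), NKTR (0.966) and ZNF76 (0.966), and those most like CA9 were PKP3 (0.994), SERINC2 (0.993) and the glycolytic gene PFKL (0.992). These coefficients share the treatment contrast, the libraries and their depth, and describe likeness only.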

How the data were processed

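RNA-seq libraries of SCC15 and SCC25 cells were made by the authors, aligned to GRCh38 with HISAT2 2.0.5 and counted per gene with featureCounts 1.5.0-p3, as the submitters' processing notes give them. The deposited signal per gene equals reads over a library size factor, which the authors set within each line. The authors also deposited log2 fold changes and p-values of their own DESeq2 comparison, and these columns were not used. Multiplying back gave whole reads (within 0.01 read) for 100% of values. Genes with a mean of at least 10 normalized counts were tested on log2(normalized count + 1) with limma 3.58.1 (R 4.3.3, eBayes with trend, two-sided), adjusted by Benjamini-Hochberg over all genes tested, so fold changes of low genes are understated. The difference between lines was a contrast of the 4 group means. Recovered reads were also tested with edgeR 4.0.16 and DESeq2 1.42.0, and other pseudocounts, filters, scalings, a replicate block and leaving out each library were tried. The fits were tested on simulated data. The 10 members and the gene lists were chosen with earlier results of these data known. Outside the members, subunits and sensors, the text names in each list and line up to 3 called genes with the largest rise and up to 3 with the largest fall, among non-overlapping genes averaging 100 normalized counts or more, and the 3 genes most correlated with HIF1A and with CA9. Exonic lengths and overlaps are from GENCODE v44. Of the 10 members, 7 matched the RefSeq promoter table.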

Additional observations from a re-analysis of the deposited data

Results flagged for a closer look

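The squamocin response differed between the lines for 34 of 47 genes, the 10 members and the list genes named by the rule that were tested in both lines (limma contrast, adjusted p under 0.05, SCC15 minus SCC25, log2 scale, 12 libraries). The list genes were named for a large rise or fall in a line, so this share cannot be read against the 52.2% of all genes called different. Among the members, the difference was 6.32 for CA9, 2.63 for NDRG1, 1.64 for EGLN3 and 1.60 for BNIP3, and it was −1.38 for ADM and −0.60 for HILPDA. In the HIF machinery it was 1.44 for EGLN2, 1.09 for ELOB, −0.73 for SIAH1, −1.32 for ARNT2 and −0.31 for EPAS1, the last with an adjusted p of 0.0491.

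Among other targets the response was higher in SCC15 by 2.63 for IGFBP3, 2.45 for LOXL2, 2.30 for PLOD1, 2.02 for DDIT4, 1.49 for STC2 and 0.75 for KDM4B. It was lower in SCC15 for BHLHE40 (−1.01), EFNA1 (−0.91) and PLAUR (−0.55). The glycolytic genes gave 2.75 for ALDOA, 1.98 for PFKP, 1.94 for ENO2, 1.93 for ALDOC, 1.87 for PFKL and 0.50 for PFKFB3, the last not called with equal library totals (0.21, adjusted p = 0.404). Among paralogs and partners the differences were 2.07 for RAMP1, 1.62 for ADM2, 1.12 for PNPLA2, 0.63 for PLIN3, −0.56 for NDRG2, −0.89 for FUNDC1, −1.08 for BCL2L1 and −1.72 for VEGFC.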

How the results depend on the processing

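Member calls in each line kept their direction and side of the threshold under both other pseudocounts, both other filters, TMM factors, edgeR and DESeq2. Equal library totals, which shift the median gene by −0.49 in SCC15 and −0.21 in SCC25 by construction, changed most: 5 members were lower in SCC15 (2 in the main fit) and 2 higher in SCC25 (5), and HIF1A (−0.35 and −0.081) and BNIP3 in SCC25 (−0.066) changed sign. The difference between lines changed sign for HIF1A (−0.27, with TMM −0.0195 and with edgeR −0.0185) and VEGFA (−0.23), and EGLN1 was then called (−0.31). Over all genes equal totals called 2357 higher and 8033 lower of 15902 in SCC15, and 5032 higher and 7839 lower of 16539 in SCC25. Beside these, the SCC15 lists under equal totals counted 5 higher for the HIF machinery, 16 higher and 9 lower for other targets, 7 and 4 for glycolytic genes, and 5 and 7 for partners. With edgeR 2 glycolytic genes were lower in SCC15. Keeping all genes above 0 left 1 member lower in the difference between lines. Leaving out each library gave 2 to 4 members lower in SCC15 (4 without squamocin replicate 3), 1 to 2 lower in the difference, and for SCC15 partners 6 to 11 higher and 2 to 6 lower. Over those fits values near 0 changed sign: NDRG1 in SCC25 ranged from −0.047 to 0.024, ARNT2 in SCC25 from −0.44 to 0.18, EPAS1 in SCC15 from −0.10 to 0.098, and the difference from −0.011 to 0.071 for HIF1A, −0.092 to 0.021 for EGLN1 and −0.023 to 0.21 for VEGFA. Same-numbered libraries did not deviate together (correlations −0.051 to 0.0078). This cannot tell whether they were set up together, because the labels do not describe the cultures. A fit with the replicate block gave 5 higher and 2 lower members in SCC15 and changed no member call. The cause of these changes was not tested beyond the shift that equal totals impose. Each library held 18 to 67 reads of ANKRD37 in SCC15, which limits its precision.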
